A study of Caenorhabditis elegans with 12 samples.

Results

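The *col* genes of *Caenorhabditis elegans* encode the collagens from which the worm builds its cuticle, and 54 of the 159 genes named *col* with a number in the deposited tables made up the set described here, out of 46546 named genes in all. The set was chosen by its own values in unexposed worms. A gene entered when its mean CPM (counts scaled to a library total of 1000000 on named genes) was at least 1 in unexposed worms at L3 or L4, and when its mean at L4 was at least as high as its mean at L3. Of the other *col* genes, 67 were higher at L3 and 38 stayed under the CPM minimum at both stages. The stage difference in unexposed worms is therefore the selection itself and is given only as a description. The tests below used the 6 Cd-exposed libraries for the stage, and the comparisons of Cd-exposed with unexposed worms at each stage, which share the unexposed libraries with the selection.

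The study asked how larval stage affects the response to cadmium (Cd). Synchronized wild-type N2 hermaphrodites were grown from L1 on *Escherichia coli* OP50 at 4 combinations of Cd and stage, with 3 libraries each: 20 µM Cd to L4 (47 h), 0 µM Cd to L4 (47 h), 20 µM Cd to L3 (27 h) and 0 µM Cd to L3 (27 h). The Cd was given as cadmium chloride on the plates inoculated with the bacteria, from L1 onward. The exposure therefore lasted longer at L4 than at L3. Each library came from whole worms of a population, so that stage, exposure time and age rise together in the exposed worms.

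The cuticle is an extracellular matrix made by the epidermis. It is built anew before each moult, and collagens are secreted in waves within each moulting cycle, so that a collagen mRNA can be high for a few hours and low soon after. Different stages use partly different collagens: some are made for larval cuticles and others for the adult cuticle, which is laid down during L4. The switch from larval to adult collagens is part of the heterochronic pathway, in which the transcription factor LIN-29 activates adult collagen genes such as *col-19* and *col-7*.

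The 12 libraries held between 23899991 and 44766672 counts on named genes, and 50 of the 54 members had at least 1 count in every library. The metallothionein gene *mtl-1*, which is induced by Cd, checked the labels: it had 15.6, 17.8 and 22.3 CPM in exposed and 2.34, 3.14 and 1.26 CPM in unexposed L4 worms, and 251, 219 and 260 CPM in exposed and 4.94, 5.72 and 6.37 CPM in unexposed L3 worms. Libraries that stood apart within their group were unexposed L3 replicate 3 at L3, and exposed L4 replicate 1 and unexposed L4 replicate 2 at L4. The values that show this stand beside the Cd comparisons. The summed level of the *msp* genes, which encode the major sperm protein, was at most 3.15 CPM in the L3 libraries and between 3714 and 4554 CPM in the L4 libraries, while the 6 vitellogenin (yolk) genes summed to at most 14.9 CPM at L3 and to between 18790 and 47620 CPM at L4. Vitellogenins are textbook genes of the adult hermaphrodite intestine, and every L4 library held them at a high level. In RNA from whole worms, fewer cells of a type and less RNA per cell cannot be told apart.

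Together the 54 members took 42970, 43450 and 43220 CPM in exposed L4 worms and 44440, 48150 and 47140 CPM in unexposed L4 worms, or 4.30% to 4.82% of all counts. At L3 they took 4968, 5735 and 5362 CPM in exposed and 4718, 5036 and 5038 CPM in unexposed worms. The 67 *col* genes higher at L3 ran the other way, with 16700, 9601 and 10250 CPM in exposed L4, 9184, 4048 and 8182 CPM in unexposed L4, 17990, 21580 and 21700 CPM in exposed L3, and 42860, 42500 and 27520 CPM in unexposed L3 worms. Most of the members' sum at L4 came from few genes: 17 of the 54 had a mean of at least 1000 CPM in unexposed L4 worms.

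Levels of different genes were compared per kilobase of exon, with the lengths given in the files. In unexposed L4 worms the most abundant member was *col-140* (V, 5835855 to 5836871, minus strand, WBcel235) at a mean of 3181 CPM per kb, followed by *col-124* (IV, 10216450 to 10217643) at 3133, *col-139* at 2890, *col-122* at 2848, *col-20* at 2353, *col-129* at 2288, *col-81* at 2282, *col-93* at 2196, *col-119* at 1971, *col-181* at 1900, *col-80* at 1818 and *col-106* at 1669 CPM per kb. Neighbours in this order were often closer than the libraries of a group. *col-140* had 2929, 3365 and 2952 CPM and *col-124* had 3209, 3928 and 3616 CPM in unexposed L4 worms, and their ranges overlapped, also once divided by length. At the other end stood *col-43* at 1.00 and *col-127* at 1.70 CPM per kb.

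**Figure D1:**
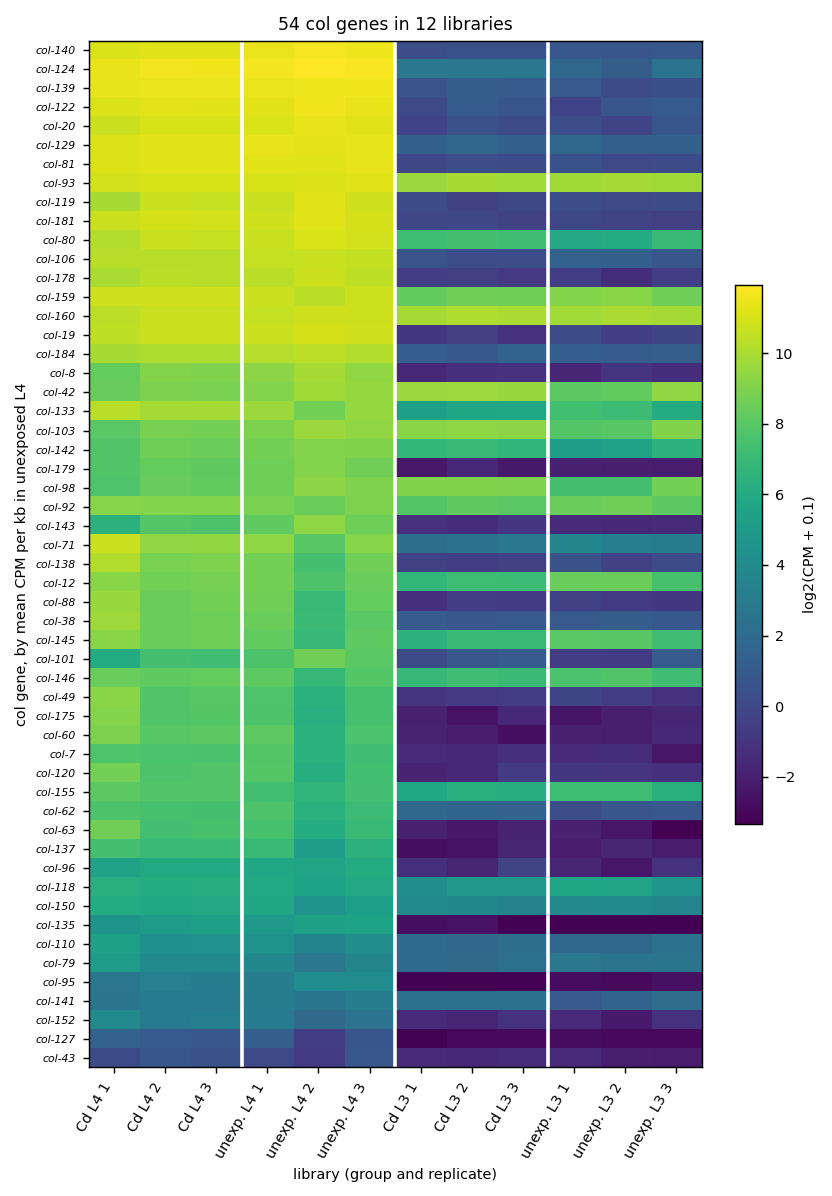
Level of each of the 54 *col* genes (rows, ordered by mean CPM per kb in unexposed L4 worms) in each of the 12 libraries (columns, white lines between groups), as log2(CPM + 0.1). Most rows are dark in the 6 L3 libraries and bright in the 6 L4 libraries, while rows such as *col-93*, *col-160*, *col-42* and *col-12* are bright in all 12.

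The members fell into 3 kinds by how much they had differed in the selecting libraries. For 30 of them the mean in unexposed worms was at least 100-fold higher at L4 than at L3, for 13 it was at least 2-fold and under 100-fold higher, and for 11 it was under 2-fold higher. In unexposed L3 worms 21 members had a mean under 1 CPM, and in exposed L3 worms 22 did. *col-135* had 0 counts in all 3 unexposed L3 libraries and 31.1, 42.8 and 45.4 CPM in unexposed L4 worms, at least 392-fold higher when each L3 library is set to 3 counts. By contrast *col-93*, the eighth in abundance per kb, had 2040, 2218 and 2316 CPM in unexposed L4 and already 875, 949 and 863 CPM in unexposed L3 worms. The same held for *col-160*, with 1554, 1812 and 1741 CPM at L4 and 916, 1021 and 932 CPM at L3 in unexposed worms.

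The members closest to the limit of the selection had nearly equal levels at both stages. Just inside it stood *col-145* with a ratio of mean CPM at L4 over L3 of 1.05, *col-12* with 1.10 and *col-146* with 1.13, and just outside stood *col-186* with 0.947, *col-113* with 0.821 and *col-161* with 0.818. At the minimum level *col-43* (higher mean 1.02 CPM), *col-127* (1.51) and *col-152* (5.83) were inside, and *col-45* (0.705), *col-126* (0.511) and *col-116* (0.331) were outside. Without 1 unexposed library at a time the set held between 51 and 57 genes, and the members that dropped out in any of these sets were *col-145*, *col-12*, *col-155*, *col-146* and *col-43*.

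The stage difference was then measured in the exposed worms, whose 6 libraries had played no part in the selection. The members had been chosen for the same stage contrast in unexposed worms, and the genes at large had not. A high share called higher at L4 was therefore largely set by the choice, and the shares over all genes only describe the background. Members with too few counts at L3 entered the test through their L4 counts. edgeR's quasi-likelihood test, adjusted by Benjamini-Hochberg over all 16650 genes tested, called a gene when its adjusted p did not exceed 0.05 and its levels differed by a log2 fold change of 1 or more in either direction. Of the 54 members, all tested, 49 were higher in exposed L4 than in exposed L3 worms (90.7%, against 25.5% of all genes tested) and 0 were lower (against 22.6% of all genes; 0 also with the unadjusted p and with DESeq2). In 51 members the 3 exposed L4 libraries all lay above the 3 exposed L3 libraries, which 40.3% of all genes did, and in 3 members they all lay below, which 42% of all genes did. The median fitted log2 fold change was 8.50 (7.83 with the 1 member that had 0 counts in exposed L3 worms set at its bound), against -0.01 over all genes tested. Of the 67 *col* genes higher at L3 in unexposed worms, 21 were higher and 22 lower in this comparison, with a median of 0.12. The 49 members were also called in every fit that left out 1 of the 6 libraries.

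The largest difference was that of *col-19* (X, 421707 to 423033, plus strand), the adult-specific cuticle collagen. It had 1422, 1642 and 1645 CPM in exposed L4 worms and 0.450, 0.644 and 0.370 CPM in exposed L3 worms. The log2 fold change was 11.71 with a standard error of 0.191 (edgeR adjusted p = 6.59e-11). In unexposed worms its levels were 1692, 2013 and 1829 CPM at L4 and 1.05, 0.619 and 0.815 CPM at L3. The gene was thus near 0 before and among the abundant transcripts at the later stage in both kinds of worm.

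The next members by fitted log2 fold change between exposed L4 and L3 worms were *col-60* (11.39), *col-95* (11.30), *col-81* (11.26), *col-181* (11.21), *col-178* (11.11), *col-175* (11.11), *col-20* (10.95), *col-179* (10.95) and *col-140* (10.88), all with adjusted p of at most 6.89e-07 in the same test. These genes differed far less in this ratio than in their level: *col-140* had 2167, 2434 and 2424 CPM in exposed L4 worms, whereas *col-95* had 6.34, 10.1 and 8.56 CPM. *col-95* had 0 counts in all 3 exposed L3 libraries, and its level at L4 was at least 95.7-fold higher when each L3 library is set to 3 counts. *col-127* had 2 counts over the 3 exposed L3 libraries together, and its ratio of 108 had a counting interval of 29.9 to 893 (95%, counting error only).

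Some abundant members were already high at L3. *col-93* rose less than the genes above, with 1912, 2097 and 2090 CPM in exposed L4 and 798, 972 and 899 CPM in exposed L3 worms (log2 fold change 1.24, standard error 0.107, adjusted p = 2.75e-06, edgeR). *col-80* had 1146, 1597 and 1520 CPM in exposed L4 and 144, 172 and 153 CPM in exposed L3 worms (log2 fold change 3.24, standard error 0.157). *col-159* had 1862, 1815 and 1845 CPM in exposed L4 and 310, 402 and 376 CPM in exposed L3 worms (log2 fold change 2.39, standard error 0.116). In each of them the stages did not overlap.

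The 5 members that were not called were those with the smallest or negative stage differences in exposed worms. *col-160* (log2 fold change 0.64, adjusted p = 0.000576) and *col-141* (0.51, adjusted p = 0.0181) had passed the adjusted p but not the fold minimum. In the other 3 the direction was opposite to that in unexposed worms. *col-42* (V, 18638484 to 18639591, plus strand) had 332, 494 and 466 CPM in exposed L4 worms and 817, 823 and 774 CPM in exposed L3 worms, giving a log2 fold change of -0.85 with a standard error of 0.149 (edgeR adjusted p = 0.000445). In unexposed worms it had 551, 881 and 750 CPM at L4 and 277, 306 and 681 CPM at L3. *col-98* (III, 13018935 to 13020226, plus strand) had 210, 331 and 308 CPM in exposed L4 and 520, 526 and 506 CPM in exposed L3 worms (log2 fold change -0.82, standard error 0.162, adjusted p = 0.00101), against 376, 630 and 513 CPM in unexposed L4 and 171, 176 and 437 CPM in unexposed L3 worms. *col-103* (IV, 762416 to 763680, minus strand) had 257, 456 and 427 CPM in exposed L4 and 610, 640 and 630 CPM in exposed L3 worms (log2 fold change -0.66, standard error 0.195, adjusted p = 0.0100), against 480, 796 and 671 CPM in unexposed L4 and 229, 247 and 522 CPM in unexposed L3 worms. The 3 genes shared a pattern: exposed L4 replicate 1 was the lowest of the L4 libraries, and unexposed L3 replicate 3 lay well above the other unexposed L3 libraries.

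The 3 members nearest the limit of the selection were not near equality in exposed worms. *col-145* had 603, 362 and 388 CPM in exposed L4 and 92.5, 125 and 129 CPM in exposed L3 worms (log2 fold change 2.00, standard error 0.193, adjusted p = 6.31e-06), while its unexposed libraries, at 307, 119 and 279 CPM at L4 and 263, 252 and 155 CPM at L3, overlapped. *col-12* and *col-146* had L4 over L3 ratios of 3.70 and 2.41 in exposed worms, and of 1.10 and 1.13 in unexposed worms. Whether the stage difference itself differed between exposed and unexposed worms was not tested, because the unexposed part of it had chosen the genes.

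**Figure D2:**
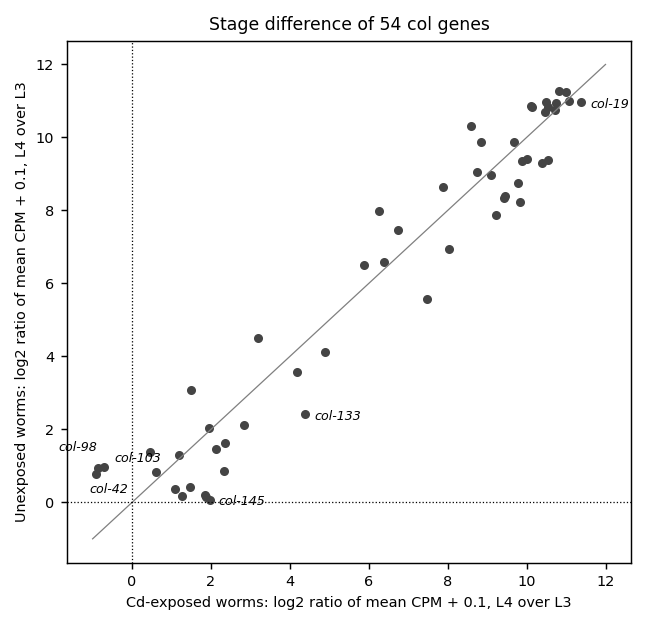
Each point is 1 of the 54 *col* genes, placed by the log2 ratio of mean CPM + 0.1 at L4 over L3 in Cd-exposed worms (horizontal) and in unexposed worms (vertical), with the line of equal ratios in grey. No point lies below 0 on the vertical axis, as the selection requires, and *col-42*, *col-98* and *col-103* are the 3 points left of 0 on the horizontal axis.

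At L3, 42 of the 54 members had enough counts to be tested between Cd-exposed and unexposed worms. With the same test over 15024 genes, 0 members were higher (against 0.246% of all genes tested) and 1 was lower (2.38% of the 42 members, against 3.38% of all genes). With the unadjusted p the counts were 0 and 3, against 135 and 771 of the 15024 genes, and with DESeq2, which tested all 54, they were 0 and 3. The fitted log2 fold changes were positive in 15 members and negative in 27, from -1.36 to 0.94 with a median of -0.12, against 0.01 over all genes tested. In 8 members (19%) the exposed libraries all lay above the unexposed ones, a pattern found in 21% of all genes, and in 9 members (21.4%) they all lay below, against 13.9% of all genes. Of the 67 *col* genes higher at L3, 35 were lower with Cd, and their median was -1.46. Both groups of genes had been chosen by the unexposed L3 libraries that serve here as the reference, those 67 for high values in them, and the difference between the groups was not tested.

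The called member was *col-12* (V, 10423907 to 10425092, minus strand), a cuticle collagen with a near-identical partner gene, *col-13*. It had 110, 145 and 138 CPM in exposed and 346, 364 and 184 CPM in unexposed L3 worms, giving a log2 fold change of -1.25 with a standard error of 0.270 (edgeR adjusted p = 0.0399). The call was lost in every fit that left out 1 of the 6 libraries except the fit without unexposed replicate 3. *col-13*, which was higher at L3 in unexposed worms and so is no member, had 113, 149 and 157 CPM in exposed and 375, 408 and 203 CPM in unexposed L3 worms. How reads that match both genes were counted is not given in the sources used here, so the share of each gene in these values is uncertain.

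Beyond *col-12*, *col-62* was the member with the lowest p in the upward direction. It had 3.41, 2.90 and 2.70 CPM in exposed and 1.17, 1.56 and 1.72 CPM in unexposed L3 worms (log2 fold change 0.94, standard error 0.188, adjusted p = 0.0317), just short of the fold minimum. Next came *col-80*, with 144, 172 and 153 CPM in exposed and 58.1, 65.7 and 125 CPM in unexposed worms (0.86, standard error 0.262, adjusted p = 0.0926), and *col-103* (0.86, standard error 0.285, adjusted p = 0.113). In the downward direction *col-133* had 39.0, 53.2 and 57.5 CPM in exposed and 156, 143 and 67.9 CPM in unexposed worms (-1.36, standard error 0.326, adjusted p = 0.0528). In *col-80* and *col-133* the groups did not overlap, but unexposed replicate 3 stood much nearer to the exposed libraries than to the other unexposed ones.

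The count of calls at L3 depended on that library. Among the 17 members with a mean of at least 10 CPM in unexposed L3 worms, unexposed replicate 3 lay on the exposed side of both other unexposed libraries in 15. Without it 9 members were higher with Cd (against 2.44% of 15304 genes tested) and 7 were lower (against 5.84%). The 9 were *col-98* (log2 fold change 1.5), *col-101* (1.46), *col-142* (1.39), *col-42* (1.39), *col-103* (1.32), *col-80* (1.26), *col-124* (1.15), *col-62* (1.04) and *col-141* (1.02), with adjusted p from 1.86e-05 to 0.0310. The 7 were *col-133* (-1.66), *col-12* (-1.51), *col-145* (-1.23), *col-155* (-1.18), *col-106* (-1.14), *col-71* (-1.06) and *col-118* (-1.02), with adjusted p from 0.000105 to 0.0113. All values come from edgeR's quasi-likelihood test on the 5 remaining libraries. The sets are named because of this result, and the choice to name them was made after their values were seen.

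The same library stood apart in genes of the moulting cycle. The 9 moulting genes (*mlt-8*, *mlt-10*, *mlt-11*, *nas-37*, *noah-1*, *noah-2*, *fbn-1*, *qua-1* and *ptr-4*) summed to 3612, 3494 and 3715 CPM in exposed and to 2035, 1960 and 3949 CPM in unexposed L3 worms, with none of the 9 at 0 in any library. Their fitted log2 fold changes with Cd were positive in 5 and negative in 4, from -1.58 (*mlt-10*) to 0.83 (*fbn-1*). The 19 collagens named for a mutant shape, such as *dpy-13*, *rol-6* and *sqt-3*, summed to 4759, 4746 and 6378 CPM in exposed and to 14210, 12750 and 9739 CPM in unexposed L3 worms. The lower sum did not hold for each gene: the fitted log2 fold changes with Cd were positive in 10 and negative in 9, with a median of 0.54. *dpy-7*, for instance, had 362, 338 and 387 CPM in exposed and 139, 132 and 380 CPM in unexposed L3 worms. In both sums unexposed replicate 3 was the unexposed library nearest to the exposed ones or beyond them. The part of the moulting cycle in the members' values was not tested.

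At L4 all 54 members were tested between Cd-exposed and unexposed worms, and 0 were higher (against 0.037% of 16201 genes tested) and 0 were lower (against 0.00617%). With the unadjusted p, 4 were higher and 2 lower, against 376 and 87 of the 16201 genes, and with DESeq2 the counts were 0 and 0. The counts depended on the filter on low counts: with all 25350 genes that had a count, edgeR called 4 members higher (against 0.892% of those genes) and 2 lower (against 0.162%). They also changed with a replicate block, as given at the end under processing. The fitted log2 fold changes were positive in 26 and negative in 28, from -1.41 to 1.10 with a median of -0.07. In 15 members (27.8%) the exposed libraries all lay above the unexposed ones, against 21.3% of all genes, and in 16 (29.6%) they all lay below, against 13.8% of all genes. Of the *col* genes higher at L3, 63 of the 66 tested had positive values at L4, with a median of 0.82, and 0 were called (5 higher and 0 lower with the unadjusted p; DESeq2 was not counted for that group). The unexposed L4 libraries had entered the choice of both groups.

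The lowest p among the members with positive values was that of *col-155*, with 277, 225 and 226 CPM in exposed and 159, 101 and 163 CPM in unexposed L4 worms (log2 fold change 0.73, standard error 0.170, adjusted p = 0.0882, edgeR). It was followed by *col-118* (0.32, standard error 0.0977, adjusted p = 0.114) and *col-133*, which had 1269, 942 and 946 CPM in exposed and 805, 411 and 741 CPM in unexposed worms (0.64, standard error 0.224, adjusted p = 0.137). On the negative side stood *col-106* with 1267, 1251 and 1253 CPM in exposed and 1550, 1592 and 1472 CPM in unexposed worms (-0.35, standard error 0.0925, adjusted p = 0.1), *col-140* (-0.45, standard error 0.122, adjusted p = 0.101) and *col-98* (-0.90, standard error 0.244, adjusted p = 0.101). The groups did not overlap in any of these 6 genes, yet none passed the test. *col-106* had the tightest libraries of them.

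Among the most abundant members no difference with Cd at L4 passed the test. *col-140* had 2167, 2434 and 2424 CPM in exposed against 2929, 3365 and 2952 CPM in unexposed L4 worms, and *col-20* had 1688, 2053 and 2030 against 2180, 2806 and 2476 CPM. *col-124* had 2804, 3201 and 3192 CPM in exposed against 3209, 3928 and 3616 CPM in unexposed worms (log2 fold change -0.28, standard error 0.135, adjusted p = 0.211). In *col-139* (2707, 2904 and 2908 against 2838, 2944 and 3141 CPM) and *col-81* (2256, 2488 and 2478 against 2412, 2353 and 2616 CPM) the groups overlapped. The larger differences were in less abundant members, *col-49* (1.10), *col-175* (1.05), *col-138* (1.03) and *col-38* (1.01) upward and *col-143* (-1.41) and *col-101* (-1.18) downward on the log2 scale, with adjusted p between 0.107 and 0.153. These 6 were the members called by edgeR with no filter on low counts, with adjusted p between 0.0141 and 0.045, and are named after their values were seen.

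In some members the direction with Cd was opposite at the 2 stages. Of the 42 members tested at both, 6 (14.3%) had all exposed libraries above the unexposed ones at L3 and below them at L4, against 4.51% of the 14112 genes tested at both stages. In 6 others (14.3%) they lay below at L3 and above at L4, against 4.91% of those genes. This second order was not particular to the members. Of the 67 *col* genes higher at L3, 48 (71.6%) lay below at L3, and 38 of the 66 tested (57.6%) lay above at L4. *col-10*, *col-17* and *col-125* among them did both. At L4, 0 of the 66 lay below. The unexposed libraries of both stages had entered the selection of the members. It asked for an unexposed mean at least as high at L4 as at L3, which can favour the first order and not the second. The genes at large were not so chosen, and whether the Cd difference itself differed between the stages was not tested.

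**Figure D3:**
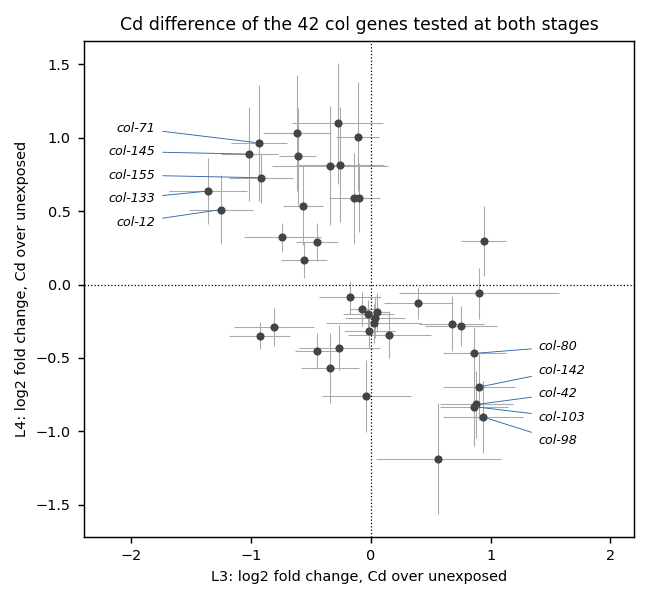
Log2 fold change of Cd-exposed over unexposed worms at L3 (horizontal) and at L4 (vertical) for the 42 *col* genes tested at both stages, with bars of 1 standard error from edgeR. *col-133*, *col-12*, *col-145*, *col-155* and *col-71* lie at upper left and *col-42*, *col-98*, *col-103*, *col-142* and *col-80* at lower right. Both axes share libraries with the selection of the genes.

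The spread at L4 lay mainly in 1 library of each group. In 23 members (42.6%) exposed replicate 1 was the highest and unexposed replicate 2 the lowest of the 6 L4 libraries, as in 25.4% of all genes tested, and in 20 members (37%) the order was reversed, as in 15.8% of all genes. The sum of the 67 *col* genes higher at L3 was also highest in exposed replicate 1 (16700 CPM) and lowest in unexposed replicate 2 (4048 CPM). The order was noticed in these libraries and is given as a description. The extremes were *col-49*, with 596, 221 and 248 CPM in exposed and 215, 84.9 and 178 CPM in unexposed worms, and *col-143*, with 90.5, 232 and 204 CPM in exposed and 300, 661 and 380 CPM in unexposed worms. Exposed replicate 1 held 7.02 times the *col-49* level of unexposed replicate 2, and 0.137 times its *col-143* level. *col-71* had 1623, 677 and 711 CPM in exposed and 655, 255 and 572 CPM in unexposed worms, and *col-101* had 66.0, 174 and 154 against 205, 390 and 267 CPM. In these genes exposed replicates 2 and 3 and unexposed replicates 1 and 3 all lay between the outlying libraries. With both outlying libraries left out, an alternative chosen after seeing the data, 0 members were called in either direction.

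The same libraries stood at the ends in other genes. The 9 moulting genes summed to 574, 326 and 314 CPM in exposed and to 284, 161 and 245 CPM in unexposed L4 worms. The 19 collagens named for a mutant shape summed to 4771, 2123 and 2243 CPM in exposed and to 1996, 894 and 1842 CPM in unexposed L4 worms, so that both sums had the same highest and lowest library as *col-49*. The 6 vitellogenins, all detected in every library, summed to 18790, 30620 and 28690 CPM in exposed and to 25210, 47620 and 34100 CPM in unexposed L4 worms, with the same highest and lowest library as *col-143*. Their part in the members' values was not tested.

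**Figure D4:**
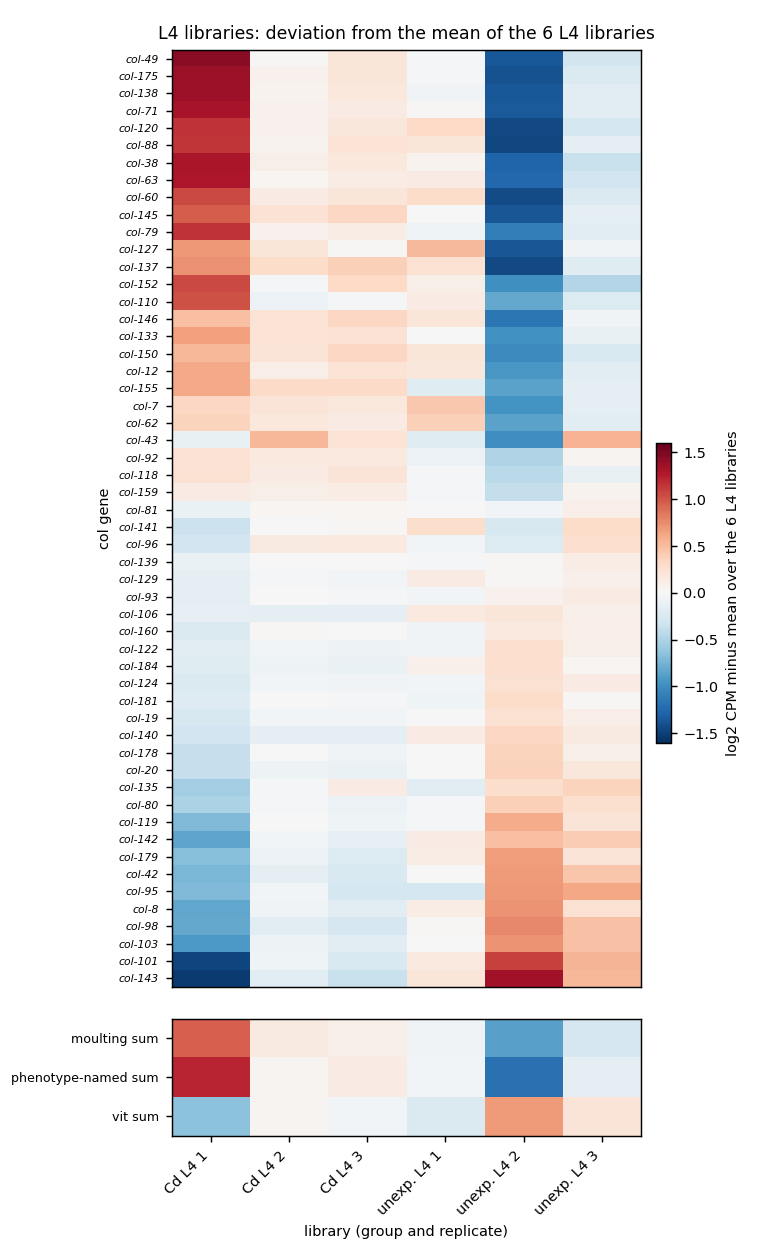
Deviation of each member in each L4 library from the mean of the 6 L4 libraries, in log2 CPM (red higher, blue lower), ordered by the ratio of exposed replicate 1 to unexposed replicate 2, with the summed moulting genes, collagens named for a mutant shape and vitellogenins below. The upper rows are high in exposed replicate 1 and low in unexposed replicate 2, the lowest rows the reverse, and rows such as *col-81* and *col-139* hardly vary.

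The members with a textbook role differed in their stage pattern. *col-7* (I, 7401674 to 7402753, plus strand), an adult collagen like *col-19*, had 214, 197 and 191 CPM in exposed L4 and 229, 87.4 and 152 CPM in unexposed L4 worms. It had 0.265, 0.225 and 0.313 CPM in exposed L3 and 0.251, 0.295 and 0.0905 CPM in unexposed L3 worms. Its log2 fold change between exposed L4 and L3 was 9.57 (standard error 0.131, adjusted p = 5.23e-11). Per kilobase *col-7* had 197 CPM in exposed and 153 CPM in unexposed L4 worms, well under *col-19* at 1232 and 1448. *col-12* rose between exposed L3 and L4 by 1.93 on the log2 scale (standard error 0.146, adjusted p = 1.05e-06), with 587, 418 and 449 CPM in exposed L4 worms and the L3 values given above. *col-2*, *col-13*, *col-17*, *col-34* and *col-99*, which were on the same list of known collagens, did not belong to the set.

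**Figure D5:**
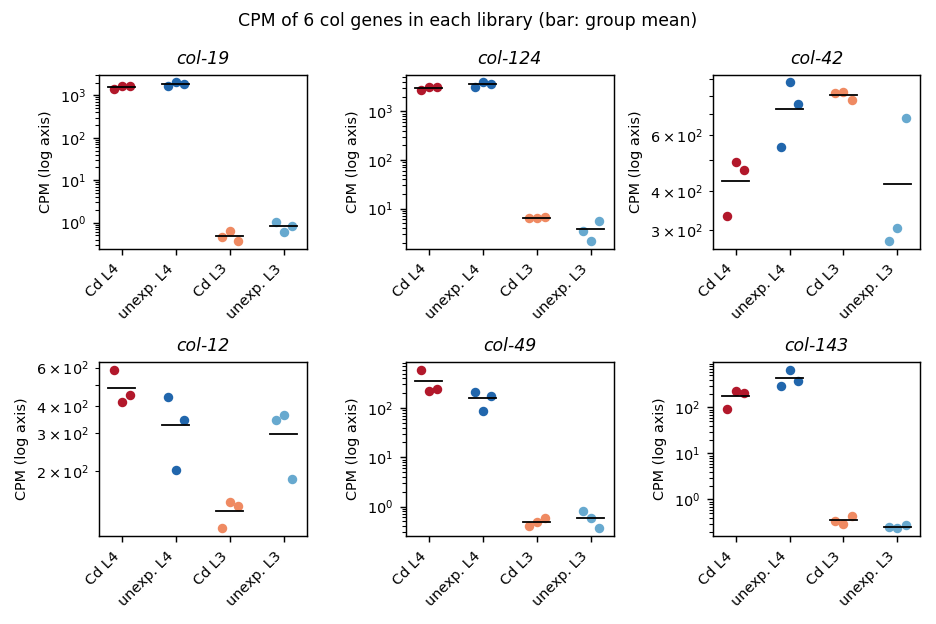
CPM of *col-19*, *col-124*, *col-42*, *col-12*, *col-49* and *col-143* in each of the 12 libraries (points, log axis with a different range in each panel) with the group mean as a bar. *col-19* and *col-124* separate the stages by far more than the spread of any group, *col-42* is higher at L3 than at L4 in exposed worms only, and *col-49* and *col-143* spread in opposite order at L4.

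The members were spread over all 6 chromosomes, with 15 on IV, 15 on V, 7 on III, 6 on II, 6 on X and 5 on I. Of them 15 lay within 10000 bp of another member, against 14 of the 67 *col* genes higher at L3 within that distance of another gene of their own group. Neighbours did not always have the same pattern. *col-7* and *col-62* lie 538 bp apart on opposite strands, and at L4 their levels were close in every library: *col-62* had 202, 177 and 173 CPM in exposed and 207, 87.2 and 141 CPM in unexposed worms. *col-178* and *col-179*, 1001 bp apart on X, were both under 1 CPM in every L3 library. In contrast *col-79* and *col-80*, 2629 bp apart on II, had opposite orders of the L4 libraries: *col-79* had 32.6, 15.3 and 15.8 CPM in exposed and 13.8, 6.64 and 12.8 CPM in unexposed L4 worms, against 1146, 1597 and 1520 and 1608, 2121 and 1939 CPM for *col-80*. *col-141*, *col-142* and *col-143* lie next to each other on V, with 7.80, 477 and 440 CPM per kb in unexposed L4 and 2.92, 56.0 and 0.249 CPM per kb in unexposed L3 worms.

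Counts may be shared where genes overlap, since the strand setting of the counting is not given in the sources used here. The span of 15 members overlaps that of another gene, and in 7 of them exons overlap. *col-110*, at 43.2, 19.8 and 21.0 CPM in exposed L4 worms, shares 1.55% of its exonic length with *F19C7.1* on the other strand, which reached 288 CPM. *col-19* shares 6.59% of its exonic length with *ZK1193.2*, which reached 91.9 CPM, and *col-124* shares 7.26% with *qns-1*, which reached 92.9 CPM. These neighbour levels are the highest over all 12 libraries. The levels of *col-19* and *col-124* at L4 were far above them, and their L3 levels far below. The neighbours' own levels at L3 were not compared.

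Over the 12 libraries the genes most like the top members by Pearson correlation of log2 CPM included other collagens. For *col-140* they were *memi-1* (r = 0.99923), *col-81* (0.99922) and *F40G12.11* (0.99918), for *col-124* they were *Y65B4BL.4* (0.99908), *ify-1* (0.9988) and *cyb-1* (0.99879), and for *col-139* they were *D1086.10* (0.99949), *col-129* (0.99938) and *col-81* (0.99922). Such values reflect mainly the gap between 6 L3 and 6 L4 libraries, which all these genes share, and are a description.

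Genes of the pathways around the cuticle did not follow the members between exposed L4 and L3 worms. Of all 16650 genes tested there, 25.5% were called higher and 22.6% lower at L4. Of the 19 collagens named for a mutant shape, 2 were higher (10.5%) and 14 lower (73.7%) at L4. The 2 were *bli-1*, with 118, 69.6 and 66.9 CPM in exposed L4 and 0.847, 0.837 and 1.25 CPM in exposed L3 worms (log2 fold change 6.47), and *bli-2* (4.09), whose mutants have a blistered adult cuticle. Of the 10 genes for collagen processing, which include the prolyl 4-hydroxylase subunits *dpy-18* and *phy-2*, 0 were higher and 2 lower (unadjusted p and fold: 0 and 2). The share lower, 20%, was near that of all genes. Of the 9 moulting genes 0 were higher and 7 lower (77.8%), of the 7 epidermal genes 0 and 4 (57.1%), and of the 8 heterochronic genes 0 and 4 (50%). *lin-29*, the activator of adult collagens, had 13.2, 11.1 and 10.4 CPM in exposed L4 and 40.5, 45.6 and 40.9 CPM in exposed L3 worms (log2 fold change -1.83, standard error 0.113, adjusted p = 2.29e-07). All 6 vitellogenins, the 31 *msp* genes tested and 3 of the 4 germline genes were higher at L4, the 2 intestinal and 2 body wall muscle genes were not called, and the 3 Cd response genes were lower at L4. With Cd at L3, 8 of the 19 named collagens (42.1%), 1 of the 10 processing genes (10%) and 1 of the 9 moulting genes (11.1%) were lower. The 3 Cd response genes were higher, and 0 genes of the other lists were called. Of all genes tested at L3, 0.246% were higher and 3.38% lower. With Cd at L4 only *mtl-1* of all these lists was called, and it was higher, as were 0.037% of all genes tested.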

How the data were processed

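Poly-A RNA of 12 libraries was sequenced. Per the submitters' processing notes, the authors used Trimmomatic 0.36, STAR 2.5.2b and featureCounts of Subread 1.5.2 with the WBcel235 genome, and deposited whole-number counts per gene without normalization. The annotation release, strandedness and handling of multi-mapping reads are not given in the sources used here. An entry without a gene name (at most 2.01% of a library) was left out. Groups came from the sample titles, and 1 label field of the exposed libraries gives a Cd level of 0.

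CPM used the total of named genes. Comparisons used edgeR 4.0.16 (TMM, filterByExpr, quasi-likelihood test) in R 4.3.3, fitted on the libraries of the groups compared, with Benjamini-Hochberg adjustment over all genes tested. Fits were tested on simulated data. DESeq2 1.42.0, other scalings, filters, thresholds, a replicate block and left-out libraries were alternatives. A group at 0 was set to 3 counts per library for fold bounds. Replicates differed by more than sampling noise (chi-square per degree of freedom at least 3.22). The members and gene lists were chosen with earlier results of these data known. Named were the 12 most abundant members per kb, up to 10 called members per direction (otherwise the 3 of lowest p, or for stage the 5 lowest fold changes), those at the limits, and those with a textbook role; others were named after their values were seen. Protein and promoter sequences were not analysed here.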

Additional observations from a re-analysis of the deposited data

Results flagged for a closer look

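In 13 members the Cd-exposed libraries all lay on one side of the unexposed ones at L3 and all on the other side at L4. Of the 42 members tested at both stages, 12 did so, 6 in each order (14.3% each, against 4.51% and 4.91% of the 14112 genes tested at both). Whether the Cd difference itself differed between L3 and L4 was not tested. Of them 7 were higher with Cd at L3 and lower at L4, by these ratios of mean CPM in exposed over unexposed worms: *col-98* with 1.98 at L3 and 0.558 at L4, *col-142* with 1.94 and 0.640, *col-42* with 1.91 and 0.592, *col-80* with 1.89 and 0.752, *col-103* with 1.88 and 0.585, *col-124* with 1.75 and 0.855, and *col-143* with 1.40 and 0.392. The others were lower with Cd at L3 and higher at L4: *col-146* with 0.704 and 1.5, *col-79* with 0.682 and 1.91, *col-155* with 0.553 and 1.72, *col-71* with 0.543 and 2.03, *col-145* with 0.517 and 1.92, and *col-133* with 0.407 and 1.61. This second order was also found in *col* genes outside the set, such as *col-10*, *col-17* and *col-125*. None of the 13 passed the threshold at either stage in the main edgeR fit with all libraries, in which *col-143* had too few counts to be tested at L3. With no filter on low counts edgeR called *col-143* lower at L4 (adjusted p = 0.0141). The unexposed libraries had also entered the selection of the 13, in a way that can favour the order higher at L3 and lower at L4. The genes at large were not so chosen.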

How the results depend on the processing

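The 49 members higher in exposed L4 than in exposed L3 worms were all called under every alternative of scaling, filter, samples and left-out library, and 48 of them with glmTreat against a fold of 2. With no minimum fold 3 members were lower in that comparison. For Cd at L3, the number higher was 1 with library totals alone and 1 with no minimum fold, and the number lower was 3 with DESeq2, 3 with no filter on low counts, 3 with the unadjusted p, 2 with all 12 libraries in one fit, 0 with glmTreat and 0 among members with at least a 2-fold ratio. Leaving out 1 library gave 0 to 9 higher and 0 to 7 lower, the high end without unexposed replicate 3 (against 2.44% and 5.84% of all genes). For Cd at L4, 4 were higher and 2 lower with no filter (against 0.892% and 0.162% of all genes). With the unadjusted p they were 4 and 2 (against 376 and 87 of 16201 genes), and 1 was lower with all 12 libraries in one fit. Whether the replicate numbers pair the libraries is not given by the labels and could not be settled from the values. Correlations of same-numbered deviations ran from -0.243 to 0.45. With Cd at L4 they were 0.45, 0.393 and -0.112, with replicates 1 and 2 closest to their own number and replicate 3 not. With the replicate block the counts were 0 lower at L3, and 3 higher and 2 lower at L4. Where no share of all genes stands beside a count, it describes the setting and is no result about the members. The causes were not tested. The set held 55 members by TMM-normalized CPM, 52 at a minimum of 5 CPM and 43 at a 2-fold ratio. Followed gene by gene were the members with the 10 largest and 5 lowest stage fold changes, and those called or of lowest p with Cd. Each was followed in the comparison that picked it, and other genes named here were not. No fold change so followed changed sign under these alternatives, while the balance of calls with Cd at L3 turned without unexposed replicate 3. Over the genes so followed 364 values stayed on their side of the threshold, 10 passed it newly and 7 no longer passed. Scaling by DESeq2's size factors moved the median log2 fold change of all genes from -0.01 to 0.09 between exposed L4 and L3. Low counts limit what can be said of members near 0 at L3, and with 3 libraries a group an exact permutation test of a single gene could not go below p = 0.1.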
